A study of Mus musculus with 5 samples.

Results

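Hepatocytes of bezafibrate-treated mice were compared between a positive and a negative gate set on a fluorescent probe of fatty acid oxidation activity and sorted by flow cytometry, with 1 RNA library for each gate. These are 2 of the 5 libraries of the study. They were taken by their labels and not by a cut on measured values, but earlier results of these data were known at the time. Of 13966 genes in the deposited table, the 8981 with a mean over the 5 libraries of at least 5 were compared. All cells were labelled as hepatocytes from liver of ICR mice, an outbred stock, and no genetic alteration is named in the labels. The other 3 libraries are the high gate of bezafibrate mice and the negative and positive gates of mice without bezafibrate, called control here. The sources used here give neither dose, duration, age, sex and number of mice nor whether both gates came from 1 liver. The labels call the gates by activity (negative, positive and high positive), and the level of the probe in each gate is not given. With 1 library in each group there is no replicate check, so each difference describes these libraries.

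Fatty acid oxidation takes up fatty acids, links them to coenzyme A, passes them into mitochondria as carnitine esters and shortens them by cycles of beta-oxidation. Peroxisomes shorten very long and branched chains by a separate set of enzymes, and microsomal Cyp4a enzymes hydroxylate the far end of the chain, which is called omega-oxidation. Bezafibrate is a fibrate that activates peroxisome proliferator-activated receptors, and in rodent liver the alpha form, PPARalpha, is the regulator of most of these genes.

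The values are normalised read counts. Differences are given as positive minus negative on the scale log2(value + 1), which makes differences of genes with low values look smaller. Folds are the positive value divided by the negative one, with exact 95% intervals that cover counting error only. Where the values of 5 libraries are given, the order is the negative and then the positive gate of control mice, followed by the negative, positive and high gates of bezafibrate mice. In bulk RNA, fewer cells of a kind and less RNA of a gene in each cell cannot be told apart.

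The bezafibrate libraries held 7146578 reads in the negative gate and 5993366 in the positive gate, and the other 3 held 5056884 to 6831281. Rn45s, the precursor of ribosomal RNA, took 18.5% of reads in the positive and 10.5% in the negative library. Ribosomal RNA was depleted during library preparation, and the part of that step in the Rn45s share was not tested. Albumin took 6.26% and 8.47% of the reads outside Rn45s. The defining hepatocyte markers were present, with a sum over 10 genes of 85343 in the positive and 120335 in the negative library. Markers of other liver cells were low in both. Kupffer cell and macrophage markers summed to 6.46 and 6.93 in the positive and negative libraries over 8 genes in the table, with 1 of them at 0 in the positive library. Endothelial markers summed to 38.5 and 33.6, stellate cell markers to 31.7 and 35.1, and cholangiocyte markers to 95.4 and 83.8. Erythroid markers summed to 33.1 and 45.5, platelet markers to 5.20 and 4.53, B cell markers to 2.84 and 1.60, and T and NK cell markers to 0.473 and 0.666. None of the 8 neutrophil markers was in the table. The Rn45s and albumin shares moved with the gates, and their part in the differences below was not tested.

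**Figure D1:**
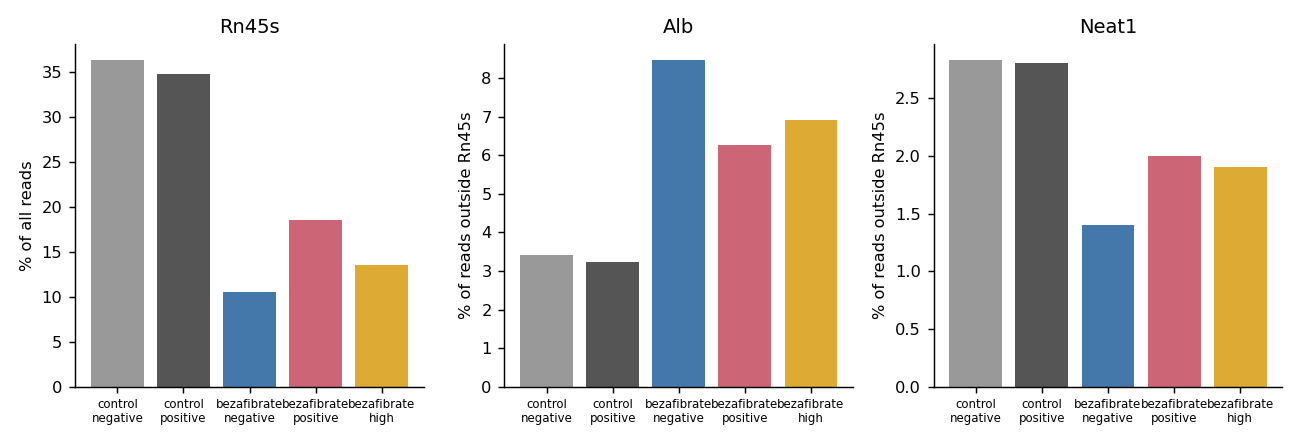
Share of reads taken by Rn45s (left, percent of all reads) and by albumin (Alb, middle) and the nuclear RNA Neat1 (right), both as percent of reads outside Rn45s, with 1 bar for each of the 5 libraries. Rn45s took 18.5% in the bezafibrate positive and 10.5% in the bezafibrate negative library, and albumin 6.26% and 8.47% of the other reads.

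The gates differed by small amounts over many genes. The median difference over the 8981 genes was -0.01, and the quartiles were -0.22 and 0.18. The positive library was higher for 4344 genes (48.4%) and lower for 4637 (51.6%). At 1.5-fold or more, 185 genes were higher (2.06%) and 237 lower (2.64%), and at 2-fold or more 12 were higher (0.134%) and 11 lower (0.122%). Between the 2 gates of control mice, the positive library was higher by at least 1.5-fold for 159 genes (1.77%) and lower for 146 (1.63%). With libraries scaled by their totals outside Rn45s, the median of all genes moved up by 0.14, to 0.13, and the split at 1.5-fold became 486 higher and 93 lower. Directions below are best read against the median of all genes. With totals outside Rn45s, more genes lay above 0 than below it. The share of all genes below 0 there is not given, and the 51.6% does not apply to group counts under that scaling. A group with equal numbers above and below 0 there has a median near 0, which is below the 0.13 of all genes. Of the 58 gene groups, 50 had a median below 0, and 37 had one under that scaling. Set against the median of all genes, 50 groups lay below it as deposited, and 1 of the 58 changed sides under that scaling. Some genes are members of more than 1 group.

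**Figure D2:**
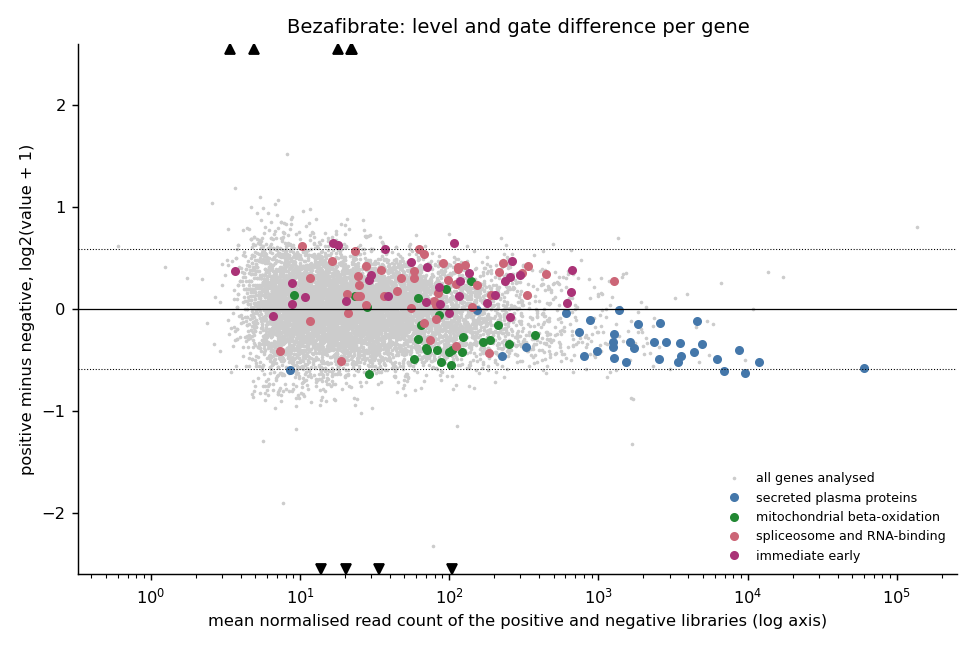
Difference between the bezafibrate gates (y axis, log2(value + 1), positive minus negative) against the mean normalised read count of both libraries (x axis, log scale) for the 8981 genes, with 4 gene groups coloured. Dotted lines mark 1.5-fold, and 9 genes beyond 2.6 on either side are drawn as black triangles at the edge. All 34 secreted plasma protein genes lie below 0, and most splicing and immediate early genes lie above it.

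Genes of the carnitine shuttle and of mitochondrial beta-oxidation were mostly lower in the positive than in the negative library. Of 25 mitochondrial beta-oxidation genes, 19 were below 0 and 6 above, with a median of -0.31 against -0.01 over all genes. Of 9 shuttle genes, 7 were below and 2 above, with a median of -0.28. With totals outside Rn45s the same groups had 18 of 25 and 6 of 9 below 0. Few genes reached 1.5-fold. In the shuttle these were Cpt2 (lower) and Cpt1b (higher), and in the mitochondrial group Hsd17b10 (lower).

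Cpt2, the inner membrane enzyme that turns acylcarnitine back into acyl-CoA (chromosome 4, 107903981 to 107923610 of GRCm38), had values of 23.0, 25.2, 62.8, 39.7 and 51.8 in the 5 libraries. The bezafibrate negative library was the highest and the positive library the lowest of the 3 bezafibrate gates, at 0.633-fold (0.541 to 0.739), and all 3 lay above both controls. Cpt1a, the liver form of the outer membrane enzyme that starts the shuttle, had 342, 325, 366, 326 and 323. Its 5 values span a narrow range, and the positive to negative ratio was 0.891 (0.841 to 0.944). Cpt1b, the muscle form of the same enzyme, ran the other way with 16.8, 20.7, 8.0, 15.1 and 10.5, or 1.89-fold (1.36 to 2.66) at low counts. The carrier Slc25a20, which exchanges acylcarnitine for carnitine, had 32.9 against 42.4, and the carnitine octanoyltransferase Crot of peroxisomes had 238 against 299.9.

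Within the matrix, the acyl-CoA dehydrogenases for medium and long chains, Acadm and Acadl, had 71.0, 78.7, 186, 149 and 143 and 38.8, 37.5, 138, 103 and 111. The control values were below all bezafibrate values for both, and the negative library was the highest. Both subunits of the trifunctional protein, which carries out the later steps on long chains, were lower: Hadha was 0.785-fold (0.733 to 0.840) and Hadhb 0.753-fold (0.661 to 0.857). Hadh, the dehydrogenase for shorter chains, had 112 against 136, and the thiolase Acaa2 had 342 against 409. Etfdh, which passes the electrons of these dehydrogenases to the respiratory chain, was 0.682-fold (0.612 to 0.760). The electron transfer flavoprotein itself split: its alpha subunit Etfa had 83.2 against 86.5, and its beta subunit Etfb was higher at 152 against 125, or 1.22-fold (1.11 to 1.33). Hsd17b10, which acts on branched-chain and other short acyl-CoAs, had 7.80, 11.9, 35.6, 22.5 and 26.4.

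Peroxisomal genes had a like spread. Of 26 genes, 19 were below 0 and 7 above, with a median of -0.23, and -0.08 under scaling without Rn45s. Ehhadh, the bifunctional enzyme of the pathway, had 72.9, 87.5, 1813, 1268 and 1535. The 3 bezafibrate values are far above both controls, and the positive library was the lowest of the 3 at 0.699-fold (0.680 to 0.719) of the negative one. Catalase (Cat), which removes the hydrogen peroxide that peroxisomal oxidation makes, had 695, 686, 2333, 1719 and 1845, or 0.737-fold (0.719 to 0.755). The long-chain importers Abcd3 and Abcd2 had 163 against 220.2 and 10.2 against 16.5.

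The peroxisomal thiolases ran against their pathway. Acaa1a had 126, 127, 90.8, 126 and 131 and Acaa1b 714, 815, 775, 953 and 1021, so the negative library was the lowest of the bezafibrate gates for both. Acaa1a was 1.39-fold (1.25 to 1.54) and Acaa1b 1.23-fold (1.19 to 1.27). They are close copies and reads may be split between them with error, but their sum was also higher, at 1079 in the positive and 865.6 in the negative library. The isomerase Eci2 was higher too, at 87.2 against 72.8.

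The 21 genes that build and divide peroxisomes had no common direction, with 9 above and 12 below 0 and a median of -0.02, a sign that turned with 2 of the scalings tried. Pex11a, a PPARalpha-responsive division factor, had 20.02 against 15.2, and the fission adaptor Fis1 21.3 against 14.8.

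In the omega-oxidation group, 10 of 13 genes were below 0 (9 without Rn45s) and the median was -0.20. Cyp4a10 had 117, 131, 1584, 1048 and 1160.1 and Cyp4a14 318, 355, 2366, 1873 and 1986. For both, the bezafibrate values exceed both controls by a wide margin, the negative library is the highest and the positive library the lowest of the 3. The positive to negative ratios were 0.662 (0.642 to 0.682) and 0.792 (0.773 to 0.810). The close copies Cyp4a12a and Cyp4a12b, summed, had 593.9 against 790.1. Cyp4a32 had 96.9 against 88.6, and assignment of reads among the Cyp4a copies is uncertain.

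**Figure D3:**
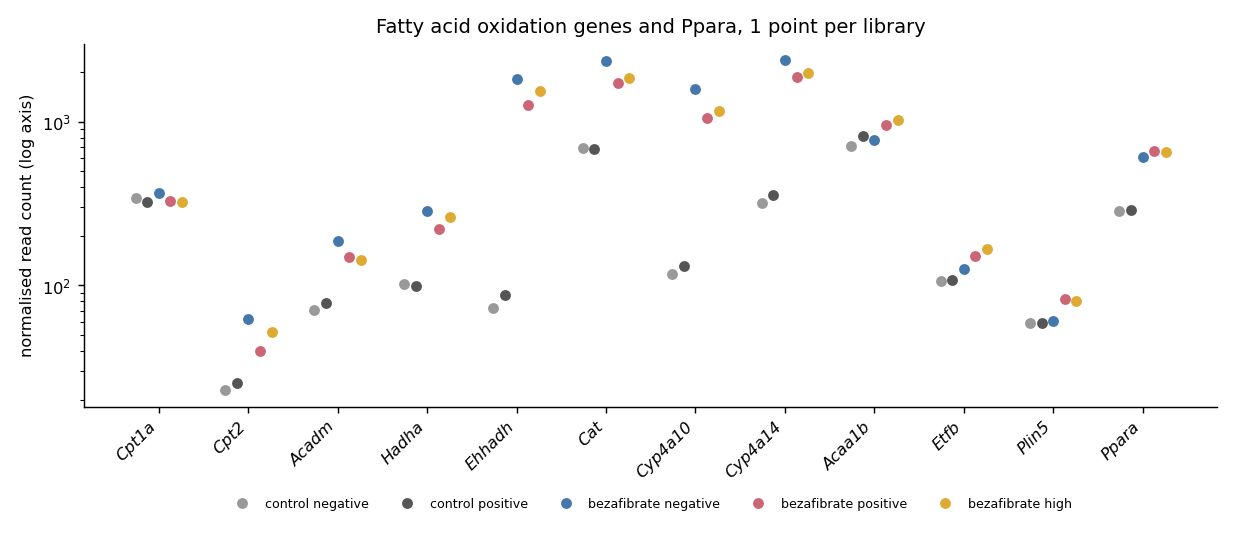
Normalised read counts (y axis, log scale) of 12 genes in the 5 libraries, with 1 point for each library. For Cpt1a and the genes after it as far as Cyp4a14, the bezafibrate negative library lies above the positive one, as Ehhadh does at 1813 against 1268, and Acaa1b, Etfb, Plin5 and Ppara show the reverse order.

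Ketone body synthesis, which turns the acetyl-CoA of beta-oxidation into exported fuel, had 4 of 6 genes below 0. The thiolase Acat1 and the dehydrogenase Bdh1 of this route had 149.7 against 195 and 133 against 164. The low monocarboxylate transporter Slc16a6 had 11.3 against 7.46. The median of the 6 genes relative to the median of all genes was -0.30, and their mean relative to the mean of all genes was -0.14.

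Fatty acid uptake and activation genes had 17 of 20 members below 0 (16 without Rn45s) and a median of -0.24. Dbi, the acyl-CoA binding protein, had 30.8, 34.9, 170.0, 100.2 and 104. The negative library stands well above the other 2 bezafibrate gates, which are near each other, and the ratio was 0.590 (0.535 to 0.649). Cd36, a fatty acid translocase, had 0.411, 1.29, 11.5, 6.15 and 7.86, and Fabp1, the fatty acid binding protein of liver, 447, 484, 1419.5, 1114 and 964. Acsl1, the main acyl-CoA synthetase of liver, was lower in all 3 bezafibrate libraries than in both controls, at 1526, 1542, 1166, 995 and 996. Slc27a2, a transporter of very long chains, was slightly higher at 1273 against 1175.

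Among 30 other known targets of PPARalpha, 19 were below and 11 above 0 (16 and 14 without Rn45s), and none reached 1.5-fold on the log2(value + 1) scale. Retsat, a retinol saturase, had 51.5, 52.4, 588, 433 and 507, with the 3 bezafibrate values far above the controls and the positive one the lowest of them. The vanins Vnn1 and Vnn3 had 12.6 against 17.5 and 18.0 against 27.2. Plin4 and Plin5, which coat lipid droplets, were higher in the positive library, with 72.3, 66.8, 69.7, 100.4 and 101 and 59.3, 59.3, 60.4, 82.9 and 79.9. In both, the bezafibrate negative library was at the level of the controls and the positive and high libraries lay above, at 1.44-fold (1.28 to 1.62) and 1.37-fold (1.21 to 1.56) for positive to negative. Plin2, another droplet coat, was lower at 83.7 against 106. Txnip, an arrestin that restrains glucose uptake, had 255, 263, 202, 288 and 280.5. The lipins Lpin1 and Lpin2, phosphatidate phosphatases, had 754 against 595 and 670.0 against 543. For Lpin1 the controls were far higher, at 2256 and 2203.

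The receptor itself did not follow its targets. Ppara had 284, 289, 609, 658 and 656, so the 3 bezafibrate libraries lay above the controls, and positive and high lay slightly above negative at 1.08 (1.04 to 1.13) for positive. Its partner Rxra had 413 against 449.9. Of 15 receptors and co-regulators, 9 were above and 6 below 0, against 13 and 2 without Rn45s and 11 and 4 with column totals. Nrip1, a corepressor, was the lowest at 17.2 against 22.3, and the mediator subunit Med1 the highest at 86.8 against 73.3. The hormone Fgf21 and the kinase Pdk4, both fasting targets, had 4.57 against 2.93 and 4.89 against 3.87, with intervals of 0.865 to 2.85 and 0.737 to 2.17 around the ratio that include 1.

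Nuclear-encoded respiratory chain genes were lower as a group. Complexes II to IV had 22 of 25 genes below 0 and a median of -0.40, the lowest of the 58 groups. Complex I had 31 of 37 below 0 with a median of -0.29, and ATP synthase 15 of 16 with -0.34. Under scaling without Rn45s, 19, 28 and 15 of these were below 0. Atp5b, the catalytic beta subunit, had 195, 209, 549, 396 and 468, and the positive library lay at 0.722-fold (0.687 to 0.759) of the negative one. Cox7b of complex IV was the lowest of its group with 32.9 against 52.5. Some members were higher: Cox6c had 61.3 against 46.8 (0.38 on the log2 scale), Ndufa2 21.4 against 16.7 and Ndufa13 73.4 against 62.9. In the citric acid cycle and pyruvate dehydrogenase group, 21 of 26 were below 0 with a median of -0.26. Mitochondrial ribosomal proteins had 45 of 63 below 0 and cytosolic ones 60 of 74, with medians of -0.22 and -0.24, and 37 and 49 were below 0 without Rn45s. Many of these transcripts are short, with median lengths of 971 nt in complex I and 925.5 nt in cytosolic ribosomal proteins, and over all genes the fifth with the shortest transcripts had a median of -0.13 and the fifth with the longest 0.05. The part of transcript length in the group medians was not tested.

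Secreted plasma proteins were lower as a group: all 34 were below 0, with a median of -0.38, and 27 of them under scaling without Rn45s. Alb had 24303, 23064, 72188, 48208 and 54530.1. The 3 bezafibrate values are above both controls, the negative library is the highest and the positive the lowest of them, at 0.668-fold (0.665 to 0.671). Apob, the backbone of very low density lipoprotein, had 4104, 4132, 11648, 7561 and 8185, in the same order. Serpina3k, transferrin (Trf) and the vitamin D carrier Gc were 0.657, 0.696 and 0.696-fold. At the other end, Apoa1 was 0.920-fold (0.905 to 0.934), and Itih3 0.997-fold (0.969 to 1.03), whose sign turned with 3 of the scalings tried. Coagulation genes had 20 of 23 below 0 (median -0.33), complement genes 17 of 21 (-0.22) and apolipoprotein and lipoprotein assembly genes 19 of 20 (-0.28). Without Rn45s these counts were 18, 12 and 13, and the medians -0.18, -0.08 and -0.14. Apob is in both the plasma protein and the apolipoprotein group, so these 2 groups are not separate sets of genes.

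The machinery that brings such proteins into the endoplasmic reticulum was lower with them. Of 36 translocation and folding genes, 35 were below 0, or 28 under scaling without Rn45s, and the median was -0.29. The signal peptidase subunit Spcs1 had 10.1 against 19.7, the translocon partner Sec62 36.3, 40.3, 81.6, 47.1 and 48.8, and the oligosaccharyltransferase subunits Rpn2 and Ddost 99.0 against 144 and 66.4 against 93.8. The chaperone Hspa5, a marker of the unfolded protein response, had 385, 387, 472, 438 and 495. The ER stress and integrated stress response group had 7 genes above and 17 below 0, with a median of -0.06 that turned to 0.08 under scaling without Rn45s.

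Drug-metabolising genes were mostly lower, with 48 of 56 below 0 (43 under scaling without Rn45s) and a median of -0.32. Cyp3a11, a main drug-oxidising enzyme, had 830.5, 853, 2779, 1891 and 2006, and the esterase Aadac 12.9, 19.2, 139, 82.6 and 98.6. The 2 receptors that control many of these genes were the highest of the group: Nr1i3 (CAR) had 166, 186, 62.1, 91.3 and 87.1, or 1.47-fold (1.30 to 1.66), and Nr1i2 (PXR) had 122 against 91.4, or 1.33-fold (1.20 to 1.48). For Nr1i3 the bezafibrate values all lay below both controls and the negative library was the lowest. Genes of male-biased and female-biased expression in mouse liver had 21 of 23 and 17 of 20 members below 0, so they did not run in opposite directions. Many genes of the Cyp2c, Ces1, Ugt2b and Mup families are close copies, and the assignment of reads among them is uncertain. The 17 Mup genes in the table summed to 10048 in the positive and 11570 in the negative library.

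Genes of both ends of the liver lobule had medians below 0. Of 42 genes of hepatocytes around the central vein, 28 were below 0 with a median of -0.16, and of 45 genes of hepatocytes around the portal tract, 34 were below 0 with a median of -0.22. Between the control gates, the same pericentral genes had a median of 0.21 with 39 above 0, and the periportal genes -0.09 with 39 below. The glutamine synthetase gene Glul, a marker of cells bordering the vein, had 97.3, 132, 109.8, 111 and 103. It was higher in the positive gate of control mice only, and in the bezafibrate gates the ratio was 1.01 (0.916 to 1.12). Cyp2e1 and Cyp1a2, also pericentral, had 805, 1007, 1608, 1293 and 1274 and 218, 263, 261, 232 and 234. Cyp2f2, a periportal cytochrome, had 903, 762, 2544, 1880.3 and 2103. Under scaling without Rn45s the bezafibrate medians were -0.01 for pericentral and -0.08 for periportal genes. The difference between the treatments was not tested.

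Genes of nitrogen metabolism were below 0 more often than above under the deposited scaling. In the urea cycle and ammonia group 10 of 14 were below 0 (median -0.13, and 0.02 without Rn45s), and in amino acid catabolism 33 of 46 (median -0.15, and 23 of 46 without Rn45s). The single genes that follow include the members farthest above 0. Ass1, argininosuccinate synthase of the urea cycle (chromosome 2, 31470207 to 31520672), had 967, 914, 1031, 1668 and 1276. The positive library was the highest of the 5, at 1.62-fold (1.57 to 1.67). Gm5424, a processed pseudogene on chromosome 10, 62071123 to 62072362, holds 61.5% of the 31-base words of the Ass1 transcript and ran the other way, with 1143, 1004, 2217, 1202 and 1731. Summed, they had 2871 in the positive and 3248 in the negative library, a ratio of 0.884, so the direction of Ass1 alone is uncertain. Asl, the next enzyme of the cycle, had 423, 376, 249, 319 and 284, while Otc, the one before Ass1, was lower at 175 against 236 and Cps1, the first, had 5562 against 6141.

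Sds, serine dehydratase, had 499, 343, 300.5, 436 and 418, and Aspg, an asparaginase, 853, 702, 389.5, 605 and 542. For Sds the bezafibrate positive library was higher than the negative one and the control positive library lower than its negative one. In the gluconeogenesis, glycolysis and glycogen group 14 of 32 genes were above and 18 below 0 (median -0.11), against 17 and 15 without Rn45s. Among single genes, glycolytic Gapdh, Gpi1 and Pklr were lower, at 0.706, 0.741 and 0.741-fold, and the gluconeogenic Pck1 and G6pc had 3396 against 3159 and 1034 against 945. Eno1, enolase, had 70.1 against 156, but its copy Eno1b ran the other way at 148 against 116. Summed, they had 218.1 against 272.2, so the single values are uncertain.

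The 5 groups with the highest medians held nuclear RNAs, stress-responsive genes and genes of RNA processing and chromatin. Of 48 splicing and RNA-binding genes, 39 were above 0 with a median of 0.24, and of 43 chromatin and transcription genes, 35 with 0.16. Immediate early genes, which respond within minutes to stimulation and to cell isolation, had 29 of 32 above 0 with 0.27, p53 response genes 13 of 17 with 0.26, and nuclear and small structural RNAs 8 of 11 with 0.31. Rn45s is a member of that last group and the farthest above 0 in it, at 0.81.

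The nuclear RNAs Malat1, Neat1 and Kcnq1ot1 had 1.24-fold (1.23 to 1.25), 1.28-fold (1.27 to 1.30) and 1.24-fold (1.21 to 1.28) between the gates. Neat1 had 20162, 19968, 11978, 15386 and 14966. Both controls are above all bezafibrate gates, and the bezafibrate negative library is the lowest. Terc, the RNA of telomerase, had 34.2 against 19.6. The small RNAs of RNase MRP and RNase P did not follow them: Rmrp had 3536, 2962, 2123, 1160.3 and 804, Rprl3 2515, 2244, 2391, 951 and 586, and Rpph1 831, 482, 263, 243 and 189. For Rmrp and Rprl3 the bezafibrate high library was lower still than the positive one.

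Among splicing genes, Srsf5, Srsf2 and Srsf4, SR proteins that mark exons, were 1.37-fold (1.28 to 1.47), 1.34-fold (1.21 to 1.48) and 1.46-fold (1.28 to 1.66). Srrm2, a scaffold of nuclear speckles, had 2135, 2176, 1147, 1387 and 1264 and Son, another, 767, 794, 392, 499 and 467. Both had their highest values in the controls and their lowest in the bezafibrate negative library. The cyclin Ccnl2, which pairs with kinases of splicing factors, had the largest upward difference after Rn45s among genes with a mean of at least 100 over the 2 libraries (chromosome 4, 155812489 to 155824543), with 424, 412, 171, 277 and 234. The core components Prpf8 and Hnrnpk ran the other way, at 157 against 212 and 96.5 against 125. Among chromatin genes, Kdm5a, a histone demethylase, Chd3, a remodeller, and Kmt2a, a histone methyltransferase, were 1.34-fold (1.20 to 1.51), 1.33-fold (1.21 to 1.46) and 1.32-fold (1.22 to 1.44), while the polymerase subunit Polr2b was 0.795-fold (0.625 to 1.01). The chromatin genes have long transcripts, with a median length of 9037 nt.

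Among immediate early genes, Jun, a subunit of the AP-1 factor, had 1333, 1403, 576, 751 and 736, or 1.30-fold (1.25 to 1.36) between the bezafibrate gates. Its partner Fos had 264, 214, 119, 152 and 155, and Ier2 611, 597, 222, 307 and 283. In each of these 3 the bezafibrate negative library was the lowest of the 5. Egr1 had 688 against 611, and Atf3, a stress-induced factor, 64.1 against 46.3. The genes past 1.5-fold were the growth arrest genes Gadd45g, Gadd45a and Gadd45b, at 1.57-fold (1.42 to 1.75), 1.59-fold (1.22 to 2.06) and 1.52-fold (1.27 to 1.83), and Id3, an inhibitor of DNA binding, at 1.61-fold (1.23 to 2.12). Gadd45g had 294, 299, 84.1, 132 and 101. Among p53 response genes, the kinase Plk3 had 989.6, 1011, 174, 235 and 214 and the cytokine Gdf15 249, 262, 158, 204 and 177, while Cdkn1a, the canonical target, had 30.9 against 28.8 and Ccng1 was lower at 15.1 against 25.7.

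Many immediate early genes are switched on by the factor CREB, which binds the palindrome TGACGTCA. The promoter windows of RefSeq (GRCm38.p6, 250 bases before to 50 after each start) were searched for this word, which reads the same on both strands. It was in 588 of 32851 windows (1.79%). That share is of windows and the counts that follow are of genes, so they are unlike units. Of the 32 immediate early genes compared, 26 had a window, and 2 of these held the word: Btg2, an antiproliferative gene, and Dusp1, a phosphatase that ends kinase signals. The stretches around it are shown to let the site be seen in its setting, with the word in capitals and each written 5′ to 3′ on the strand of its gene. The Btg2 stretch is chr1:134079278-134079357 on the minus strand and the Dusp1 stretch chr17:26508572-26508651 on the minus strand, and the word starts 166 and 143 bases before the gene's start.
Btg2: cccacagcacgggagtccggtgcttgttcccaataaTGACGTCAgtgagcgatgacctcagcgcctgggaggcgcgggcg
Dusp1: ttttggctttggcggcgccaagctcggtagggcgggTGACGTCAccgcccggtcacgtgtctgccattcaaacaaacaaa
Btg2 had values of 359, 359, 265, 334 and 321 and Dusp1 445, 429, 227, 283 and 279. For both the bezafibrate negative library was the lowest of the 5, and the ratios were 1.26-fold (1.18 to 1.34) and 1.25-fold (1.16 to 1.33). Binding was not measured, and the match describes only these letters.

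Clock genes had small differences, and their counts above and below 0 depended on the scaling. Of 22, 12 were above and 10 below 0, with a median of 0.07 against -0.01 over all genes. Under scaling without Rn45s 20 were above and 2 below, with a median of 0.22 against 0.13 over all genes. Scaled without the 100 highest genes, 17 were above and 5 below. Dbp, an output factor whose level varies strongly over the day, had 6.98, 6.25, 63.1, 69.7 and 70.1. The 3 bezafibrate libraries were close to each other and about an order of magnitude above the controls. Per2 and Cry2, repressors of the loop, had 37.4 against 29.6 and 90.2 against 74.9, and Arntl, its activator, 10.1 against 12.5.

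Some of the largest single differences rest on close copies or few reads. A copy was counted where another gene of the table held at least 20% of the 31-base words of a gene's transcript. This held for 2.92% of the genes compared, for 8.53% of the 422 at least 1.5-fold apart and for 43.5% of the 23 at least 2-fold apart. Only genes with annotation could be searched (8658 of 8981), and the rest count as having no copy, so these shares are lower limits. Amd1 (277 reads in the positive library, 0 in the other) and Amd2 (3 against 301 reads) are near-identical, and their summed values were 44.1 and 40.1. Mup19 had 1 read in the positive and 207 in the negative library. Dpm1-adnp, a read-through of 2 genes, had 16.5 against 34.5, and with Dpm1 the sum was 23.2 against 41.2. Gstp2, a glutathione transferase, had 12.6 against 3.73, but with its abundant copy Gstp1 the sum was lower, at 608.1 against 766.1. Lars2, the mitochondrial leucyl-tRNA synthetase (chromosome 9, 123366927 to 123462666), had 38.2, 28.7, 131, 25.2 and 42.6. The negative library alone stood apart, with the other 4 between 25.2 and 42.6, and the ratio was 0.193-fold (0.162 to 0.228). For Lars2, reads numbered 160 in the positive and 980 in the negative library, and the search found no copy. Tmod1, an actin filament cap, had 43 reads in the positive and 0 in the negative library, at least 16.9-fold higher against a floor of 3 reads (lower limit of the exact interval of the ratio 13.2), and 21.1 and 10.3 in the controls.

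Among other genes with a mean of at least 100, the antioxidant enzymes Prdx1 and Mgst1 had 41.1, 45.3, 251, 153 and 168 and 316, 349, 1401, 883 and 987. Both had the negative library as the highest of the 5, at ratios of 0.608 (0.562 to 0.657) and 0.631 (0.611 to 0.652). Pon1, a plasma esterase of high density lipoprotein, had 108 against 186, Elovl2, which elongates polyunsaturated fatty acids, 347 against 538, and Prg4, a secreted proteoglycan, 77.7 against 135. On the higher side, Irf9 of interferon signalling had 362, 379, 191, 277 and 211 and the inflammasome gene Nlrp6 711, 697, 341, 506 and 426, each with the bezafibrate negative library as the lowest of the 5. Adam11 was an exception to that order, with 138, 129.8, 215, 312 and 276, since its bezafibrate values lay above both controls.

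The order of libraries seen in many of these genes was counted over all 8981. The positive library lay between the control mean and the negative library for 5479 of them (61.0%). The negative library is both an end of that range and a part of the gate difference, and an expected share was not computed. A second measure did not place the 2 libraries against the controls. Each gene was placed by its value in the bezafibrate high library minus the mean of both controls, a difference that uses none of the 2 libraries compared. Treatment and mouse cannot be told apart in that difference. Across genes, the positive minus negative difference had a Spearman correlation of -0.47 and a Pearson correlation of -0.40 with it. Genes are not independent replicates, and the points share library depth and scaling. The share of reads taken by Rn45s was 36.3%, 34.8%, 10.5%, 18.5% and 13.5% in the 5 libraries. In this share, too, the positive library was the bezafibrate gate nearest the controls and the negative library the farthest. The part of the Rn45s share in the correlation was not tested. The genes were then cut into 10 groups of 898 or 899 by this placing. In group 1, lowest in the high gate against control (median -0.87), the median positive minus negative difference was 0.21 and 76.2% of genes were above 0. In group 10, the highest (median 1.06), it was -0.30 and 81.6% were below 0. From each group to the next the median was lower. For the control gates, whose libraries also enter the placing, the medians of the 10 groups stayed between -0.02 and 0.03. Of the 237 genes at least 1.5-fold lower in the positive library, 208 (87.8%) had a higher value in the high gate than in control, against 51.3% of all genes. Of the 185 at least 1.5-fold higher, 152 (82.2%) had a lower one.

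**Figure D4:**
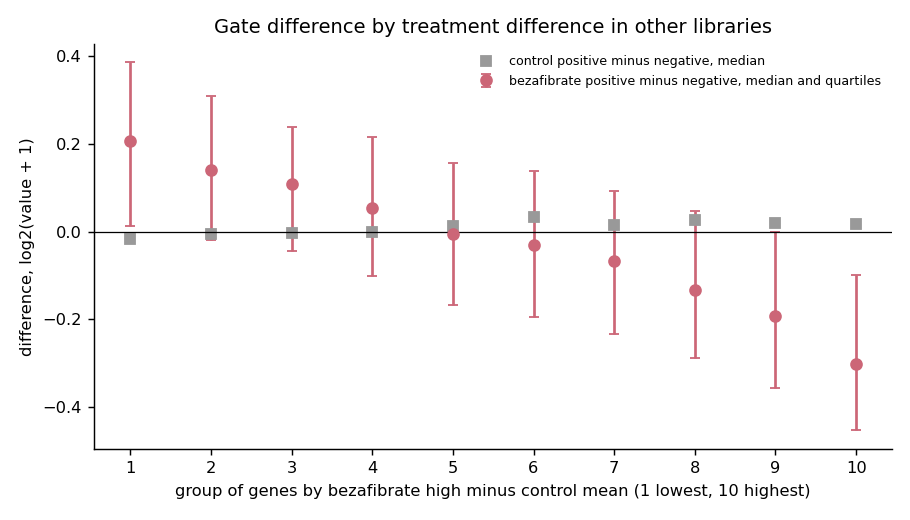
Genes in 10 groups by bezafibrate high minus control mean (x axis, 1 lowest to 10 highest), with the median and quartiles of the positive minus negative difference in bezafibrate mice (circles with bars, log2(value + 1)) and the median for the control gates (squares). The bezafibrate medians run from 0.21 in group 1 to -0.30 in group 10, and the control medians stay between -0.02 and 0.03.

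The high gate was set against the same negative library, so its differences and those of the positive gate share that library and are given side by side only. Its median for mitochondrial beta-oxidation was -0.11, for ketone body synthesis -0.08 and for secreted plasma proteins -0.27, against -0.31, -0.32 and -0.38 for the positive gate. Complex I and cytosolic ribosomal proteins had -0.31 and -0.26, against the -0.29 and -0.24 of the positive gate. In the control gates the group medians lay between -0.09 and 0.21. For mitochondrial and peroxisomal beta-oxidation they were -0.01 and 0.04. For mitochondrial beta-oxidation and plasma proteins, the gates by label (negative, positive, high) and the gates by these values were in different orders.

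**Figure D5:**
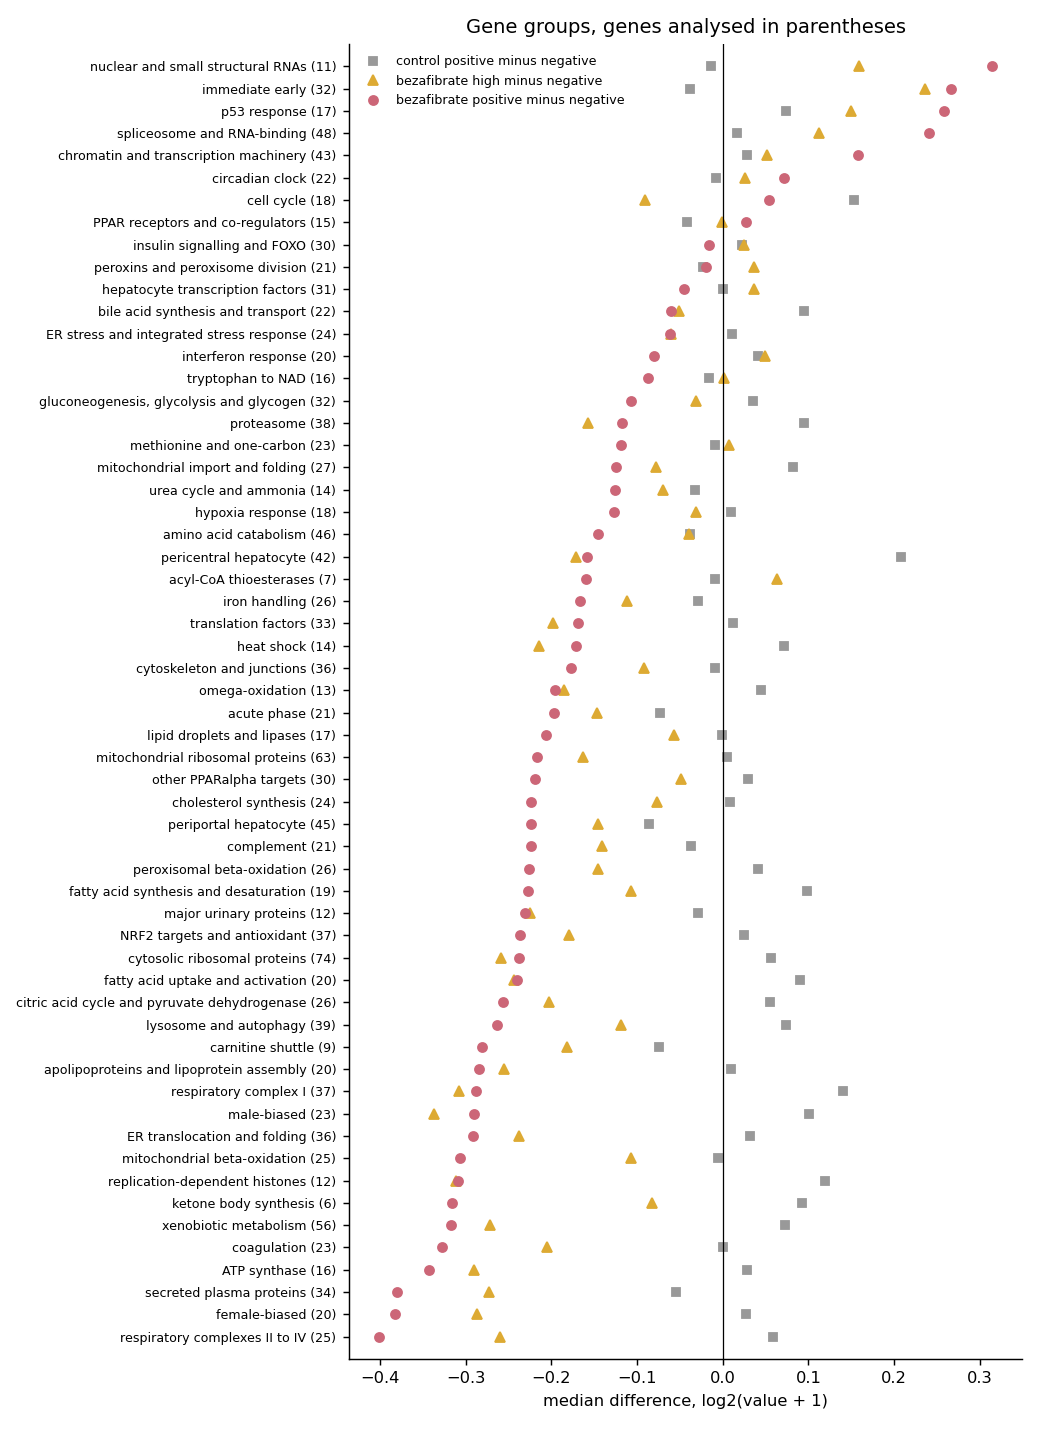
Median difference, log2(value + 1), of 58 gene groups (y axis, genes compared in parentheses) for bezafibrate positive minus negative (circles), bezafibrate high minus negative (triangles, same negative library) and control positive minus negative (squares). The circles run from -0.40 for respiratory complexes II to IV to 0.31 for nuclear and small structural RNAs, and the squares stay between -0.09 and 0.21.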

How the data were processed

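RNA of sorted mouse hepatocytes was sequenced as 5 libraries, 1 per group, after a kit for fixed tissue, ribosomal RNA depletion and directional paired-end library preparation, per the labels' protocols. The authors deposited 1 table of normalised values per gene, read here as a signal that is never negative. Build mm10 and the tools edgeR, RSEM, Bowtie2 and Trimmomatic 0.36 are named, with no role, per the submitters' processing notes. Every value was a whole multiple of 1 step per library (100% within 0.001 reads), so reads could be recovered, and library totals are sums of these reads over genes.

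Samples were grouped by title. Genes with a mean of at least 5 over the 5 libraries were compared as log2(value + 1), positive minus negative, with no p-value, since each group had 1 library. Counts were taken at 1.5-fold and 2-fold. Intervals of ratios are exact (Clopper-Pearson, 95%) and cover counting error only. Gene groups of at least 5 members were described by their median and counts. The gates, gene groups and rules were chosen with earlier results of these data known. Named genes were the 15 largest differences in each direction, the same among genes with a mean of at least 100 over the 2 libraries, the 10 most abundant genes, the 2 most abundant and the 2 extreme members of each group, and 22 reference genes. The first 2 rules left out provisional names, pseudogenes and small RNAs. Other members of the groups, and Gm5424, were named after their values were seen.

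Positions and transcript lengths are from GENCODE vM21 (GRCm38), which matched 8658 of the 8981 genes (96.4%), and promoters from RefSeq (GRCm38.p6). Shared sequence was searched by 31-base words in 1 transcript per gene. The calls at 1.5-fold and the median of unchanged genes were checked on simulated reads with counting error only and planted changes larger than 2-fold. Smaller changes, group medians, intervals, the correlation and the search for shared sequence were not simulated. Alternatives were pseudocounts, filters, 5 scalings and the mean over members. Tools were Python 3.11.15, numpy 2.4.6, pandas 2.3.3, scipy 1.17.1, R 4.3.3, edgeR 4.0.16 and DESeq2 1.42.0 (size factors).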

Additional observations from a re-analysis of the deposited data

Results flagged for a closer look

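In 4 gene groups the medians of the gate differences had opposite signs in the 2 treatments and lay at least 0.1 from 0 in both. The difference between the treatments was not tested, since each gate was 1 library. Replication-dependent histones had a median of -0.31 in the bezafibrate gates and 0.12 in the control gates, over 12 genes with low values. Genes of male-biased expression had -0.29 and 0.10. Respiratory complex I had -0.29 and 0.14. Pericentral hepatocyte genes had -0.16 and 0.21. Under scaling without Rn45s, which shifts all genes by 0.14 in the bezafibrate gates, the 4 bezafibrate medians were -0.17, -0.15, -0.14 and -0.01.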

How the results depend on the processing

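With 1 library per group, leaving out a replicate was not possible. No paired analysis was possible because the labels carry no replicate numbers and each gate of a treatment is 1 library, so the fit below that sets gates side by side within treatments uses the 2 treatments in place of replicates. The counts at a fold depend on the settings. At 1.5-fold, 49 genes were higher and 92 lower with a pseudocount of 5, 532 and 566 with no filter, 400 and 423 with a filter at 1, 55 and 78 with a filter at 20, and 486 and 93 scaled without Rn45s. At 2-fold, 21 were higher and 17 lower with a pseudocount of 0.1, 44 and 48 with no filter, 38 and 35 with a filter at 1, and 2 and 6 with a filter at 20. Higher genes at 2-fold numbered 6 with a pseudocount of 5 and 23 without Rn45s. The median of all genes was 0.13 when scaled without Rn45s. Group medians were compared relative to the median of all genes, and group means relative to the mean. Those that moved were ketone body synthesis (-0.14), acute phase (-0.11), major urinary proteins (-0.45) and nuclear and small structural RNAs (0.14) as means over members, and fatty acid synthesis with no filter (-0.13). A change of scaling shifts all genes nearly alike, so this comparison could hardly show its effect. Without that subtraction, 13 of the 58 group medians changed sign when scaled without Rn45s, and 3 without the 100 highest genes. No named gene past 1.5-fold changed sign under the settings tried. Without Rn45s, 18 of the 257 named genes, all below 1.5-fold, changed sign, Cps1, Rxra and Apoe among them. The ratio of the 2 libraries' deposited scales is the one edgeR's TMM gives, so TMM is no independent check.

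The remaining alternatives were chosen after seeing the data. The Spearman correlation of -0.47 with high gate minus control was -0.56 with a filter at 20, -0.47 and -0.45 with the control negative or positive library alone, -0.51 to -0.38 within 5 groups by transcript length, -0.48 to -0.42 within 5 by GC content and -0.63 to -0.30 within 5 by mean value. edgeR's quasi-likelihood test on the recovered reads (100% of values whole), with gate and treatment as additive terms over 4 libraries and 1 residual degree of freedom, called 4 genes higher and 7 lower at an adjusted threshold of 0.05, and 383 at the unadjusted one. It treats the gates of both treatments as replicates, and Amd1, Amd2, Mup19 and Lars2 were among the calls. At 3 reads, a value was 0.400 in the negative and 0.473 in the positive library, which limits what low genes can show.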

Other observations

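Lipid synthesis genes were mostly lower in the positive library. Of 24 cholesterol synthesis genes, 19 were below 0 with a median of -0.22, and of 19 genes of fatty acid synthesis and desaturation, 15 with -0.23. Under scaling without Rn45s these counts were 15 and 11. Scd1, the main desaturase of liver, had 1624, 1969, 6374, 4677 and 4879.8 in the 5 libraries, with the bezafibrate negative library the highest. Fads1, a desaturase of polyunsaturated fatty acids, had 159.7, 160.4, 421, 304 and 336, in the same order. Mlxipl (ChREBP), a glucose-responsive factor that drives lipogenic genes, ran the other way with 1896, 1976, 1334, 1709 and 1453. Nsdhl, an enzyme of cholesterol synthesis, was 0.520-fold (0.389 to 0.689).

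Lysosomal and antioxidant genes were also mostly lower, at 30 of 39 (median -0.26) and 30 of 37 (median -0.24). Without Rn45s the counts were 26 in each. Cathepsin B (Ctsb) had 158, 148, 454, 316 and 376 and the membrane protein Lamp2 117, 116, 361, 253 and 236, with the negative library the highest of the 5 for both. Ulk1, a kinase that starts autophagy, and Nfe2l2 (NRF2), the regulator of antioxidant genes, ran the other way, at 258 against 214 and 109.5 against 89.0. In the interferon group, which had 7 genes above and 13 below 0 and a median that turned from -0.08 to 0.06 without Rn45s, B2m, the light chain of class I molecules, was 0.658-fold (0.624 to 0.694) and the factor Irf1 had 21.0 against 14.0. Igf1, a growth factor secreted by liver, had 806, 831, 1104, 797 and 793, with the negative library alone above the other 4. Cebpb, a stress-responsive factor, had 335, 285, 159, 214 and 180.0.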
